A study of Homo sapiens with 12 samples.

Results

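The insulin-like growth factor (IGF) receptor axis and the IGF-binding proteins were described here as 9 genes: the receptors IGF1R and INSR, the receptor adaptor IRS1, and the secreted binding proteins IGFBP2, IGFBP3, IGFBP4, IGFBP5, IGFBP6 and IGFBP7. They were chosen by symbol and matched to their Ensembl identifiers. The table of read counts holds 58302 genes, of which 18035 passed the filter on low counts, and all 9 members were among those tested. RNA was sequenced from NCI-H226, a human mesothelioma line described as NF2-null, and from its derivative NCI-H226_CL3, which had been grown in rising concentrations of a TEAD inhibitor, 0.25 to 3 µM. Both lines lack NF2 per the labels, and the resistant cells are 1 line. Each line was given GNE-7883, a TEAD inhibitor, or the vehicle DMSO, at a dose and for a time that the labels do not state. The 4 groups were resistant cells (NCI-H226_CL3) in GNE-7883, resistant cells in DMSO, sensitive cells (NCI-H226) in GNE-7883 and sensitive cells in DMSO, with 3 libraries each. The series addresses acquired resistance to inhibition of TEAD, the transcription factors through which YAP and TAZ act at the end of the Hippo pathway.

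IGF1R and INSR are receptor tyrosine kinases that bind IGF1, IGF2 and insulin with different affinities and signal through adaptors such as IRS1 to PI3K and AKT. The IGFBPs hold IGFs outside the cell, which can keep the ligand from the receptor or deliver it near the receptor, and proteases such as PAPP-A cleave them and release the ligand. When AKT is active it keeps FOXO transcription factors out of the nucleus, and INSR and IRS2 are among the genes that FOXO factors are known to induce.

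Total counts were 31.9 to 47 M per library. Sensitive DMSO replicate 2 stood apart from its group: chi-square per degree of freedom between pairs of libraries reached 41.2 there, against at most 10.3 in the other groups. It held the highest or the lowest RPKM of its group for 9 of 9 members. Among 3 libraries such a rank is common, and its share over all genes is not given here. Where a call, a list's counts or a called value by over 1.5 times changed without this library, the value without it is given beside the result. The mitochondrial share of counts was 0.614% to 0.693% in resistant cells in GNE-7883, against 0.561% to 0.685% in resistant cells in DMSO, and 0.954% to 1.09% in sensitive cells in GNE-7883, against 0.522% to 0.622% in sensitive cells in DMSO. Its part in the results was not tested. The tissue label says lung epithelium. Of 12 alveolar and airway markers 2 to 3 reached 1 CPM in every group, with a summed RPKM of 3.66 to 3.97 in resistant cells in GNE-7883, 2.6 to 3.23 in resistant cells in DMSO, 575 to 596 in sensitive cells in GNE-7883 and 68.7 to 86.3 in sensitive cells in DMSO. SFTPD made up most of it in sensitive cells (mean of 579 RPKM in GNE-7883, 74.8 RPKM in DMSO). AGER averaged 1.39 to 1.88 RPKM over the 4 groups, and FOXA2 averaged 0.492 to 1.55 RPKM. The remaining markers of this list, among them NKX2-1, SFTPC and SCGB1A1, averaged below 1 RPKM in every group. Of 15 mesothelial markers, 13 reached 1 CPM in both resistant groups and 15 in both sensitive groups, and their summed RPKM was 2806 to 3532 in resistant and 4800.1 to 6709 in sensitive libraries. Endothelial markers at 1 CPM numbered 4 of 10 in every group, fibroblast markers 2 of 8 in resistant and 4 to 5 of 8 in sensitive groups, and blood markers 0 of 12 in resistant and 1 of 12 in sensitive groups.

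Of 22 YAP/TEAD target genes used to check the drug, 0 rose and 7 fell with GNE-7883 in resistant cells. Of all genes tested, 5.25% rose and 3.97% fell there. In sensitive cells 1 of the 22 rose and 18 fell, where 29.8% of all genes rose and 28.4% fell. Without sensitive DMSO replicate 2 the number that fell in resistant cells was 11, in a fit that called 3060 of all genes, against 1663 with it. CCN2, a secreted matricellular protein with an IGFBP-type N-terminal module, fell in both lines, with a log2 fold change of -0.56 ± 0.05 (SE) in resistant cells and -2.92 ± 0.06 in sensitive cells.

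Levels are given in RPKM, reads per kilobase of gene and 1 M counted reads, as the authors deposited them, so they can be compared between genes. Changes are log2 fold changes with standard errors from edgeR's quasi-likelihood test on the counts, with Benjamini-Hochberg adjustment over 18035 genes. A gene is said to have risen or fallen where its adjusted p is under 0.05. The labels do not say whether replicates were separate cultures, so the p-values cover no more than the spread among these libraries, which may be technical. In bulk RNA fewer cells of a type and less RNA per cell cannot be told apart. The comparisons share libraries, so their results are not independent of each other.

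The promoters of IGFBP3, IGFBP5 and IGF1R are shown because the first pair fell in both lines with GNE-7883 and IGF1R had the largest line difference in DMSO among the 9 genes. Each window runs from 250 bases before to 50 bases after the RefSeq start on GRCh38.p14, 5′ to 3′ on the strand of the gene. Capitals mark matches on either strand to TEAD GGAATG, FOXO GTAAACA, AP-1 TGANTCA, E2F TTNGCGC or the TATA box TATAAA. The windows are chr7:45921223-45921522 (minus strand) for IGFBP3, chr2:216695500-216695799 (minus strand) for IGFBP5 and chr15:98648289-98648588 (plus strand) for IGF1R.
IGFBP3: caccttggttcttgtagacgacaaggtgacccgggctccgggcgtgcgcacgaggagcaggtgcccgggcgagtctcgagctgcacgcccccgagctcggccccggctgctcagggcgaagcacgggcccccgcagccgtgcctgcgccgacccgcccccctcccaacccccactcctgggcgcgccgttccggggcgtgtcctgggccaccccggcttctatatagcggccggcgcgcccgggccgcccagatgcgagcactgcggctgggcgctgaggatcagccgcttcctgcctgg
IGFBP5: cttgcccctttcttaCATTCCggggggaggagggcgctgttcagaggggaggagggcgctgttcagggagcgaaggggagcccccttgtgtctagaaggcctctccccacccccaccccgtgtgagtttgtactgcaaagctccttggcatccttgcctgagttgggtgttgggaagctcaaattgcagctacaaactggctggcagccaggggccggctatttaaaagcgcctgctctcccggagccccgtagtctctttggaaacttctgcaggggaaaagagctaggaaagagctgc
IGF1R: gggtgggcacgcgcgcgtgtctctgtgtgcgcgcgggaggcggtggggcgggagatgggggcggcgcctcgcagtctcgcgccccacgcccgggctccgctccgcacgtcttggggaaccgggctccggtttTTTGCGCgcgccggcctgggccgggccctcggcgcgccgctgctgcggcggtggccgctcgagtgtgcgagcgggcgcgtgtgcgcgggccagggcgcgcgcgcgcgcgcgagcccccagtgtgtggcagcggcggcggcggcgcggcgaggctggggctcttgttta
The IGFBP3 window held none of these motifs. It lies wholly inside the GENCODE span of IGFBP3 (45912245 to 45921874, minus strand), so bases before the GENCODE start were not searched. In the IGFBP5 window the TEAD letters stood on the opposite strand (CATTCC) 235 bases before the start, and in that of IGF1R the E2F letters stood 118 bases before it. Among the other members with a RefSeq window, IRS1 had TEAD letters at -33 and E2F letters at -175, IGFBP6 had TEAD letters at -101 and FOXO letters at -186, IGFBP4 had a TATA box at -29, and INSR and the 3 windows of IGFBP2 had no match. No 2 matches overlapped within a window. Of all 35116 windows in the table, 14% held the TEAD letters, 3.42% the FOXO letters, 7.71% the AP-1 letters, 7.81% the E2F letters and 11.5% the TATA box. Members with a window numbered 8 of 9, and IGFBP7 was not matched.

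With GNE-7883 in resistant cells, the binding proteins IGFBP3 and IGFBP5 fell and no member rose. In sensitive cells both fell by more, IGFBP4 and the adaptor IRS1 also fell, and both receptors rose slightly. Of the 9 genes, 0 rose and 2 fell with GNE-7883 in resistant cells, where 5.25% of all genes tested rose and 3.97% fell. In sensitive cells 2 rose and 4 fell, where 29.8% of all genes rose and 28.4% fell. Without sensitive DMSO replicate 2, 1 member rose and 2 fell in resistant cells, where 1649 of all 18358 genes then tested rose and 1411 fell (3060 in all, against 1663 with it). In sensitive cells 3 members then rose and 4 fell, where 5463 of all 18358 genes rose and 5140 fell. The median log2 fold change of the members was 0.06 in resistant cells, against -0.00 over all genes, and -0.23 in sensitive cells, against 0.02 over all genes (-0.12 and 0.03 without sensitive DMSO replicate 2).

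Between the lines in DMSO, IGF1R, IGFBP3 and IGFBP4 were lower in resistant cells and IGFBP5 was higher. Of the 9 genes, 2 rose and 5 fell, where 24.2% of all genes tested rose and 24.4% fell, with a median of -0.30 for the members and -0.00 for all genes. Of these 7 calls, those of INSR, IGFBP2 and IGFBP7 ended when only the 2 groups compared were fitted. Without sensitive DMSO replicate 2 the counts were 2 and 4, where 4633 of all 18358 genes then tested rose and 4426 fell. In GNE-7883, 3 members rose and 1 fell in resistant relative to sensitive cells, where 30.7% of all genes rose and 31.1% fell, with medians of 0.09 and -0.01. The difference of the drug responses, resistant minus sensitive, was positive and past the threshold for 5 members and negative for 1, where 19% of all genes were positive and 16.7% negative. Without sensitive DMSO replicate 2, 4 members were positive and 1 negative, where 3788 of all 18358 genes were positive and 3323 negative.

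**Figure D1:**
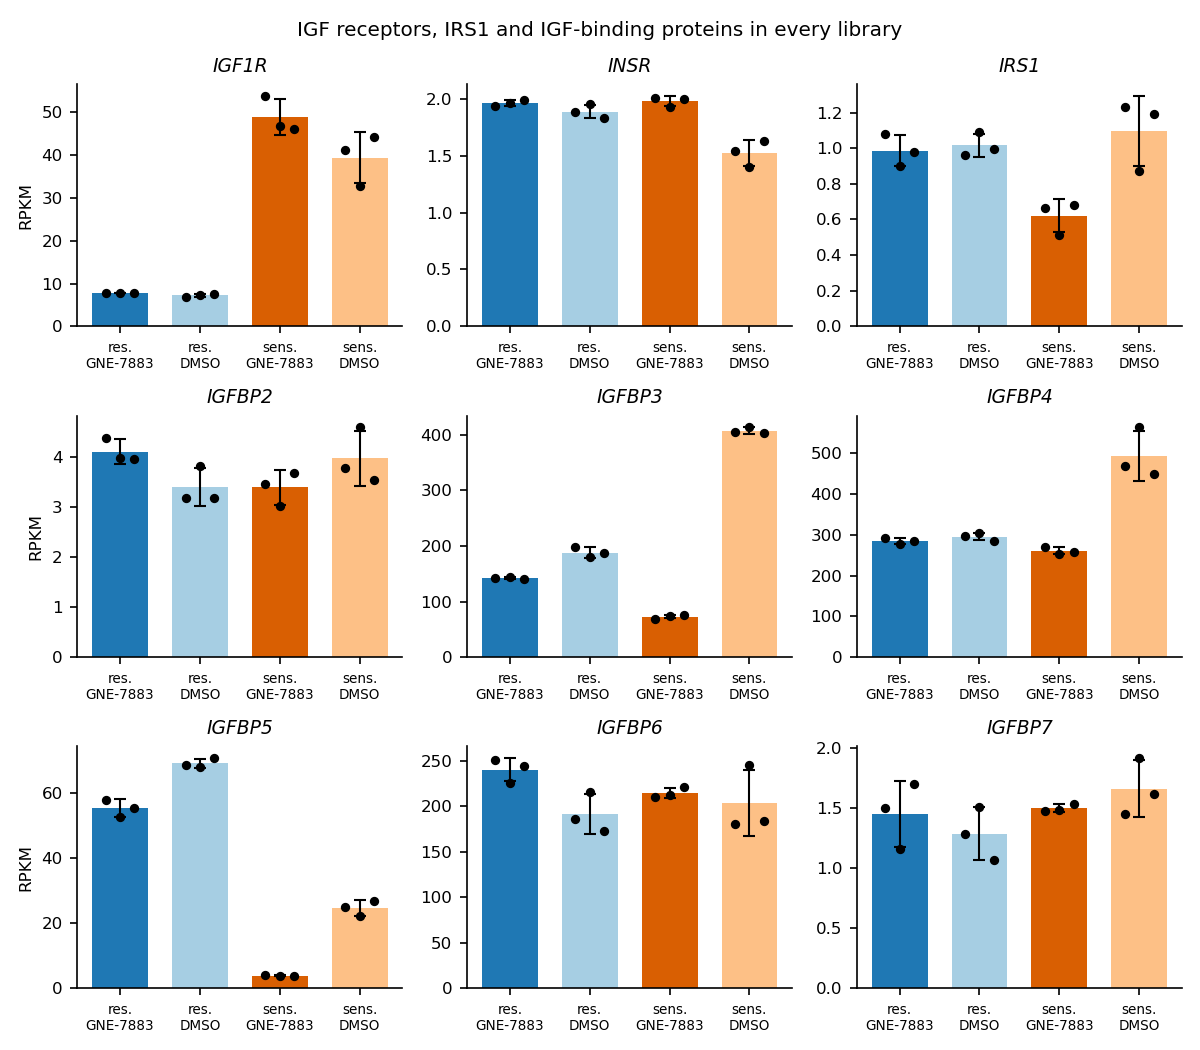
RPKM (linear axis from 0) of the 9 genes in each of the 12 libraries; bars are group means, error bars SD (n = 3) and points single libraries, with resistant (res.) and sensitive (sens.) cells in GNE-7883 or DMSO. IGF1R sits between 6.88 and 7.8 in resistant cells and between 32.7 and 53.8 in sensitive cells, while IGFBP5 is lowest in sensitive cells in GNE-7883.

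IGF1R (ENSG00000140443; chromosome 15, 98648539 to 98964530, plus strand) encodes the type 1 IGF receptor. Its RPKM was 7.8, 7.69 and 7.72 in resistant cells in GNE-7883, and 6.88, 7.35 and 7.61 in resistant cells in DMSO. It was 53.8, 46.9 and 46.1 in sensitive cells in GNE-7883, against 41.3, 32.7 and 44.2 in sensitive cells in DMSO. Every resistant library lay below every sensitive library. In DMSO, IGF1R was 5.7-fold lower in resistant than in sensitive cells (log2 fold change -2.51 ± 0.10, SE, edgeR adjusted p = 6.37e-12). In GNE-7883 it was 6.67-fold lower (-2.74 ± 0.10, edgeR adjusted p = 1.27e-12). With GNE-7883 the log2 fold change was 0.09 ± 0.09 in resistant cells (edgeR adjusted p = 0.667) and 0.31 ± 0.09 in sensitive cells (edgeR adjusted p = 0.00857). The rise in sensitive cells was not called without sensitive GNE-7883 replicate 1 (edgeR adjusted p = 0.0556) or when only the 2 groups were fitted (0.0525), and without sensitive DMSO replicate 2 it was 0.19 (edgeR adjusted p = 0.0109). The drug responses of the lines differed by -0.23 ± 0.13, which was not past the threshold (edgeR adjusted p = 0.198). The 4 genes that overlap IGF1R held 34 counts in all 12 libraries, against 142971 for IGF1R.

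The genes beside IGF1R were set next to it. The nearest tested genes were SYNM on 1 side and ARRDC4 on the other, 134 and 675 kb away. In resistant relative to sensitive cells in DMSO, SYNM had a log2 fold change of -0.13 (edgeR adjusted p = 0.263) and ARRDC4 rose by 0.67 (edgeR adjusted p = 1.51e-06). Of all genes tested, 24.2% rose and 24.4% fell in this comparison. Of 12 other genes within 2 Mb that reached 5 CPM in a group, 2 rose and 3 fell, with a median of 0.04 and ADAMTS17 lowest at -0.99. Below that level, 2 non-coding genes had changes nearer to that of IGF1R: LINC02244, with at most 1.23 CPM in a group and its start 748 kb away, fell by 2.44 (edgeR adjusted p = 5.56e-06), and the antisense gene ENSG00000259760, with at most 0.363 CPM and 753 kb away, fell by 2.08 (edgeR adjusted p = 0.00567). In GNE-7883, 0 of these 12 rose and 7 fell, with a median of -0.20, where 30.7% of all genes rose and 31.1% fell. The 3 genes whose 4 group means were most like those of IGF1R, by Euclidean distance of centred log2 CPM over 10588 genes, were IL6 (0.126), EPDR1 (0.178) and KLK8 (0.185). Each member compared has 3 such genes by this rule. They were chosen for their group means, here and for the members below, so their values are a description. IL6, a cytokine, averaged 2.38 ± 0.321 RPKM in resistant cells in GNE-7883 and 2.13 ± 0.234 in resistant cells in DMSO, and 14.7 ± 1.27 in sensitive cells in GNE-7883 and 12.1 ± 0.85 in sensitive cells in DMSO (SD, n = 3 each).

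INSR (ENSG00000171105; chromosome 19, 7112255 to 7294034, minus strand) encodes the insulin receptor, which also forms hybrid receptors with IGF1R. Its RPKM was 1.94, 1.96 and 1.99 in resistant cells in GNE-7883, and 1.88, 1.95 and 1.83 in resistant cells in DMSO. It was 2.01, 1.93 and 2 in sensitive cells in GNE-7883, against 1.54, 1.4 and 1.63 in sensitive cells in DMSO. Only the sensitive DMSO group lay apart, below all other libraries. With GNE-7883, INSR had a log2 fold change of 0.06 ± 0.07 in resistant cells (edgeR adjusted p = 0.712) and rose in sensitive cells (0.38 ± 0.07, edgeR adjusted p = 0.000267). The difference of these responses was -0.32 ± 0.10 (edgeR adjusted p = 0.0192) and was not called under 7 of 17 alternatives. These were no filter on low counts (edgeR adjusted p = 0.152) and leaving out any 1 of the 6 resistant libraries, without which the difference was -0.30 to -0.26 (edgeR adjusted p = 0.0576 to 0.0814). In DMSO it was higher in resistant cells by 0.24 (edgeR adjusted p = 0.0118), and this was not called without resistant DMSO replicate 2 (edgeR adjusted p = 0.0542), without a filter on low counts (0.0515) or when only the 2 groups were fitted (0.069). In GNE-7883 the lines differed by -0.09 ± 0.07 (edgeR adjusted p = 0.298).

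The RPKM ratio of IGF1R to INSR was 3.93 ± 0.0723 in resistant cells in GNE-7883 and 3.86 ± 0.264 in resistant cells in DMSO, and 24.7 ± 1.84 in sensitive cells in GNE-7883 and 25.8 ± 2.06 in sensitive cells in DMSO (SD, n = 3 each). The ratio separated the lines without overlap, and the drug groups within a line overlapped. This ratio is a description, with no test of its own.

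IRS1 (ENSG00000169047; chromosome 2, 226731317 to 226799759, minus strand) encodes the adaptor that links both receptors to PI3K. Its RPKM was 1.08, 0.903 and 0.977 in resistant cells in GNE-7883, and 0.964, 1.09 and 0.996 in resistant cells in DMSO. It was 0.664, 0.515 and 0.684 in sensitive cells in GNE-7883, against 1.23, 0.873 and 1.19 in sensitive cells in DMSO. The sensitive GNE-7883 group lay below all 9 other libraries, which overlapped among themselves. With GNE-7883, IRS1 had a log2 fold change of -0.04 ± 0.13 in resistant cells (edgeR adjusted p = 0.898) and fell in sensitive cells (-0.81 ± 0.14, edgeR adjusted p = 0.000102), and these responses differed by 0.77 ± 0.19 (edgeR adjusted p = 0.00499). In GNE-7883 it was higher in resistant than in sensitive cells by 0.59 ± 0.14 (edgeR adjusted p = 0.00152). In DMSO the lines differed by -0.18 ± 0.13 (edgeR adjusted p = 0.28); without sensitive DMSO replicate 2 this was -0.32 and called (edgeR adjusted p = 0.0159). The 3 genes most like IRS1 were GTPBP3, GADD45GIP1 and ACLY, at distances of 0.0234 to 0.0475.

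**Figure D2:**
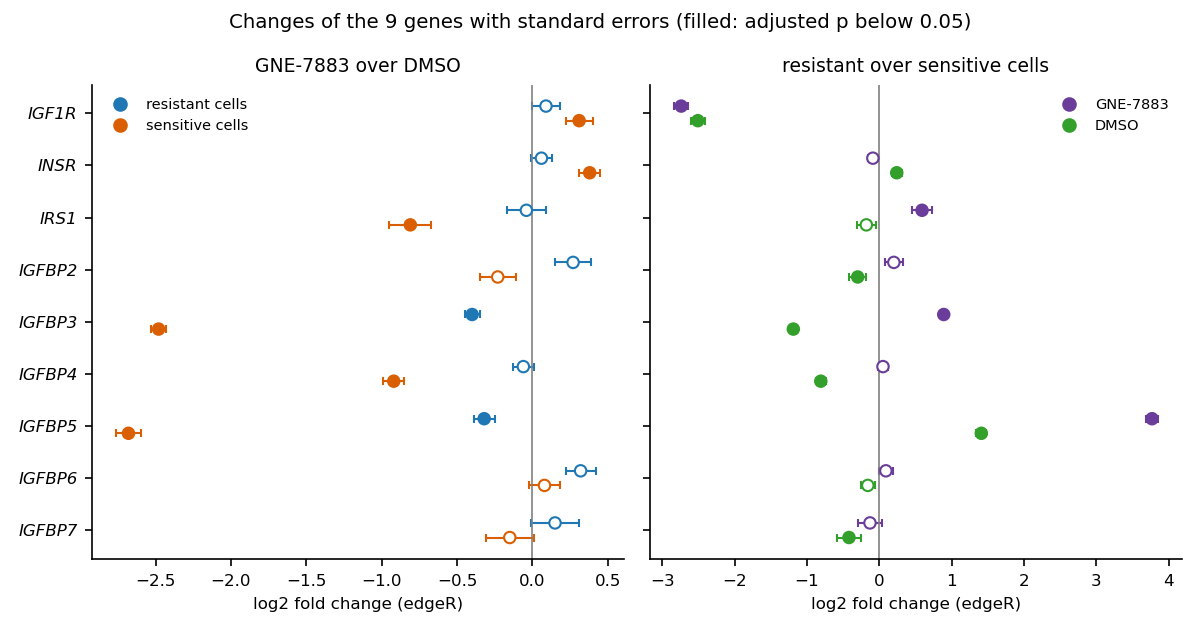
Log2 fold changes (edgeR) of the 9 genes with standard errors, for GNE-7883 over DMSO in each line on the left and for resistant over sensitive cells in each medium on the right; filled points have an adjusted p below 0.05. IGFBP3 (-2.48) and IGFBP5 (-2.68) fell most in sensitive cells in GNE-7883, and IGF1R (-2.74) and IGFBP5 (3.77) differed most between the lines in GNE-7883.

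IGFBP3 (ENSG00000146674; chromosome 7, 45912245 to 45921874, minus strand) encodes the main carrier of IGFs in serum, where it forms a ternary complex with IGFALS. Its RPKM was 142, 145 and 141 in resistant cells in GNE-7883, and 198, 179.6 and 187 in resistant cells in DMSO. It was 69.5, 73.8 and 75.3 in sensitive cells in GNE-7883, against 405, 414 and 403 in sensitive cells in DMSO. No 2 groups overlapped. GNE-7883 lowered it 1.32-fold in resistant cells (-0.40 ± 0.05, edgeR adjusted p = 7.17e-05) and 5.59-fold in sensitive cells (-2.48 ± 0.05, edgeR adjusted p = 1.63e-14). These responses differed by 2.08 ± 0.07 (edgeR adjusted p = 2.98e-11). The direction between the lines depended on the medium: IGFBP3 was lower in resistant cells in DMSO (-1.19 ± 0.05, edgeR adjusted p = 1.38e-11) and higher in resistant cells in GNE-7883 (0.89 ± 0.05, edgeR adjusted p = 2.32e-10). The order of its levels was sensitive DMSO, resistant DMSO, resistant GNE-7883 and sensitive GNE-7883, and each neighbouring pair differed. The gene most like it was ERBB3, a receptor of the EGF receptor family, at a distance of 0.134. TAGLN, an actin-binding protein, and PSG1 followed at 0.238 and 0.255. ERBB3 averaged 13.8 ± 0.371 RPKM in resistant cells in GNE-7883 and 16.5 ± 0.445 in resistant cells in DMSO, and 6.22 ± 0.391 in sensitive cells in GNE-7883 and 35.8 ± 3.31 in sensitive cells in DMSO (SD, n = 3 each).

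IGFBP5 (ENSG00000115461; chromosome 2, 216672105 to 216695525, minus strand) encodes a binding protein that also attaches to extracellular matrix. Its RPKM was 57.9, 52.5 and 55.5 in resistant cells in GNE-7883, and 68.6, 67.8 and 70.7 in resistant cells in DMSO. It was 3.94, 3.65 and 3.92 in sensitive cells in GNE-7883, against 25, 22.1 and 26.8 in sensitive cells in DMSO. No 2 groups overlapped, and every resistant library lay above every sensitive one. GNE-7883 lowered IGFBP5 in resistant cells (-0.32 ± 0.07, edgeR adjusted p = 0.00779), a call lost without resistant GNE-7883 replicate 2 (edgeR adjusted p = 0.0503). In sensitive cells it fell 6.42-fold (-2.68 ± 0.08, edgeR adjusted p = 2.91e-13), and the responses differed by 2.36 ± 0.10 (edgeR adjusted p = 2.6e-10). Resistant cells held more of it in DMSO (1.41 ± 0.07, edgeR adjusted p = 1.28e-10) and, 13.7-fold, in GNE-7883 (3.77 ± 0.08, edgeR adjusted p = 3.23e-15). Resistant cells in GNE-7883 also exceeded sensitive cells in DMSO, by 1.09 ± 0.07 (edgeR adjusted p = 3.19e-09), a comparison in which 47.1% of all genes were called in either direction. IGFBP3 and IGFBP5 both fell with the drug, but their RPKM ratio was 2.58 ± 0.159 in resistant cells in GNE-7883 and 2.73 ± 0.141 in resistant cells in DMSO, and 19 ± 1.28 in sensitive cells in GNE-7883 and 16.6 ± 1.9 in sensitive cells in DMSO (SD, n = 3 each).

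The gene most like IGFBP5 among 10588 was MARCHF4, a membrane-bound ubiquitin ligase gene, at a distance of 0.328. It lies on the same chromosome with a gap of 300.1 kb. MARCHF4 had 8.78, 7.79 and 8.1 RPKM in resistant cells in GNE-7883, and 9.58, 10.4 and 9.87 in resistant cells in DMSO. It had 0.56, 0.575 and 0.691 RPKM in sensitive cells in GNE-7883, against 4.45, 4.52 and 4.61 in sensitive cells in DMSO. MARCHF4 was chosen for group means like those of IGFBP5, so these values are a description. Genes that lie between them had smaller changes: in GNE-7883, resistant over sensitive cells, SMARCAL1 had a log2 fold change of 0.36, RPL37A -0.33 and IGFBP2 0.20, against 3.67 for MARCHF4 and 3.77 for IGFBP5. Over the 22 other genes within 2 Mb that reached 5 CPM, 8 rose and 7 fell in that comparison, with a median of 0.08. Of all genes, 30.7% rose and 31.1% fell in it. The nearest tested gene on the other side of IGFBP5, the non-coding DIRC3-AS1, has its start 587 kb away and reached at most 0.261 CPM in a group. It was higher in resistant than in sensitive cells in GNE-7883 by 4.42 (edgeR adjusted p = 0.000484), and with GNE-7883 it had a log2 fold change of 0.23 in resistant cells (edgeR adjusted p = 0.836) and fell in sensitive cells (-3.74, edgeR adjusted p = 0.00472). The next most like genes, MGLL and THBS1 at 0.503 and 0.554, lie on chromosomes 3 and 15.

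**Figure D3:**
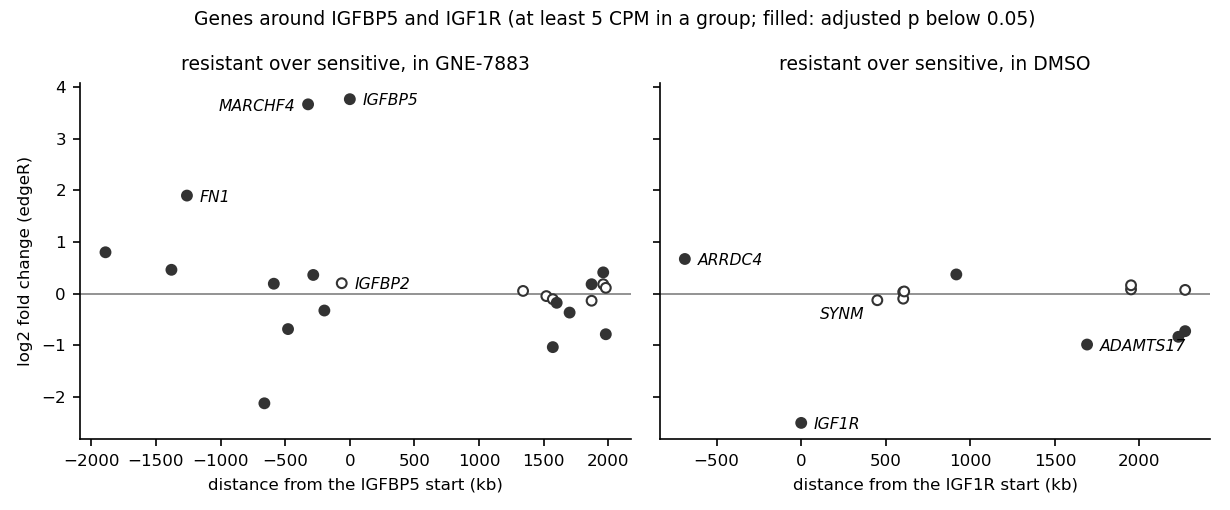
Log2 fold change (edgeR) of resistant over sensitive cells against the distance in kb of each gene's start from the start of IGFBP5 (left, in GNE-7883) and of IGF1R (right, in DMSO). Genes shown reached at least 5 CPM in a group and lie within 2 Mb of the ends of IGFBP5 or IGF1R, so some starts on the right are over 2 Mb away. Filled points have an adjusted p below 0.05. MARCHF4 (3.67) stands beside IGFBP5 (3.77) while IGFBP2 is at 0.20, and IGF1R (-2.51) is the lowest of the genes plotted on the right; genes under 5 CPM, among them LINC02244 (-2.44) and DIRC3-AS1 (4.42), are not plotted.

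IGFBP4 (ENSG00000141753; chromosome 17, 40443461 to 40457731, plus strand) encodes a binding protein known chiefly as an inhibitor of IGF action and as the main substrate of PAPP-A. Its RPKM was 291, 278 and 285 in resistant cells in GNE-7883, and 297, 304 and 286 in resistant cells in DMSO. It was 270, 254 and 258 in sensitive cells in GNE-7883, against 468, 564 and 448 in sensitive cells in DMSO. The sensitive DMSO group lay above all others, with its replicate 2 highest. With GNE-7883, IGFBP4 had a log2 fold change of -0.06 ± 0.07 in resistant cells (edgeR adjusted p = 0.704) and fell in sensitive cells (-0.92 ± 0.07, edgeR adjusted p = 1.42e-08). The responses differed by 0.86 ± 0.10 (edgeR adjusted p = 4.93e-06). Resistant cells held less than sensitive cells in DMSO (-0.81 ± 0.07, edgeR adjusted p = 7.98e-08), and in GNE-7883 the lines differed by 0.05 ± 0.07 (edgeR adjusted p = 0.551). The genes most like IGFBP4 were SLC39A4 (0.0474), TEAD4 (0.0708), which encodes a TEAD factor, and EXOSC5 (0.0909).

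IGFBP6 (ENSG00000167779; chromosome 12, 53097436 to 53102345, plus strand) encodes a binding protein that prefers IGF2. Its RPKM was 251, 226 and 244 in resistant cells in GNE-7883, and 186, 216 and 173 in resistant cells in DMSO. It was 210.1, 213 and 221 in sensitive cells in GNE-7883, against 181, 246 and 184 in sensitive cells in DMSO. The resistant groups did not overlap and the sensitive groups did, through sensitive DMSO replicate 2. The drug response was 0.32 in resistant cells, short of the threshold (edgeR adjusted p = 0.06) but past it under 9 of 18 alternatives; over all 18 the adjusted p ranged from 3.7e-05 to 0.188, and it was 0.000747 without sensitive DMSO replicate 2. In sensitive cells it was 0.08 (edgeR adjusted p = 0.541), and without sensitive DMSO replicate 2 it was 0.23 and called (edgeR adjusted p = 0.00758). The lines differed by -0.16 ± 0.10 in DMSO (edgeR adjusted p = 0.216), which was -0.26 and called without resistant DMSO replicate 2 (edgeR adjusted p = 0.0487), and by 0.09 ± 0.10 in GNE-7883 (edgeR adjusted p = 0.477). The drug responses differed by 0.25 (edgeR adjusted p = 0.201), which was called at 0.37 without resistant DMSO replicate 2 (0.0417) and at 0.29 without a filter on low counts (0.0115). IGFBP6 was 1 of the 3 most abundant binding protein transcripts in every group. The genes most like it were AHDC1, MARCHF2 and VEGFB, at distances of 0.0701 to 0.072.

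IGFBP2 (ENSG00000115457; chromosome 2, 216632828 to 216664436, plus strand) and IGFBP5 are neighbours that face each other across 7.67 kb. IGFBP2 had 4.39, 3.98 and 3.96 RPKM in resistant cells in GNE-7883, and 3.19, 3.83 and 3.18 in resistant cells in DMSO. It had 3.47, 3.02 and 3.69 RPKM in sensitive cells in GNE-7883, against 3.78, 4.6 and 3.55 in sensitive cells in DMSO. The drug groups did not overlap in resistant cells and did in sensitive cells, and neither response was called: 0.27 in resistant cells (edgeR adjusted p = 0.187) and -0.23 in sensitive cells (edgeR adjusted p = 0.114). Their difference was 0.49 ± 0.17 (edgeR adjusted p = 0.0298), not called without sensitive DMSO replicate 2 (0.39, edgeR adjusted p = 0.053) or sensitive GNE-7883 replicate 2 (0.42, edgeR adjusted p = 0.0761). In DMSO IGFBP2 was lower in resistant cells (log2 fold change -0.30, edgeR adjusted p = 0.0481), where IGFBP5 was higher. That call was lost under 9 of 18 alternatives, 6 of which left out 1 library (-0.32 to -0.18, edgeR adjusted p = 0.0528 to 0.215, the last without sensitive DMSO replicate 2). In GNE-7883 the lines differed by 0.20 (edgeR adjusted p = 0.157). The genes most like it were ABHD8, SERAC1 and ST6GAL2, at distances of 0.0293 to 0.0616.

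IGFBP7 (ENSG00000163453; chromosome 4, 57030773 to 57110385, minus strand) encodes a secreted protein with low affinity for IGFs. Its RPKM was 1.5, 1.16 and 1.7 in resistant cells in GNE-7883, and 1.29, 1.51 and 1.07 in resistant cells in DMSO. It was 1.48, 1.49 and 1.54 in sensitive cells in GNE-7883, against 1.45, 1.92 and 1.62 in sensitive cells in DMSO. All groups overlapped. The kit does not mark strand, and IGFBP7 (1288 counts) overlaps POLR2B (99128 counts) on the opposite strand, so its counts, 0.821% to 2.01% of those of POLR2B per library, are uncertain. GNE-7883 gave a log2 fold change of 0.15 in resistant cells (edgeR adjusted p = 0.663) and -0.15 in sensitive cells (edgeR adjusted p = 0.451), with a difference of 0.29 (edgeR adjusted p = 0.337). In resistant over sensitive cells the log2 fold change was -0.42 in DMSO (edgeR adjusted p = 0.0374), a call lost under 7 of 17 alternatives, among them leaving out sensitive DMSO replicate 2 (-0.30, edgeR adjusted p = 0.137), and -0.13 in GNE-7883 (edgeR adjusted p = 0.507). It did not reach the 5 CPM asked of genes compared for likeness.

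The order of the 4 groups differed between members. IGFBP5 stood in the order resistant DMSO, resistant GNE-7883, sensitive DMSO and sensitive GNE-7883, each neighbouring pair differing. IGF1R was highest in sensitive GNE-7883, then sensitive DMSO, with the resistant groups last and not differing from each other. IGFBP4 differed only between sensitive DMSO, the highest, and the next group, IRS1 only between sensitive GNE-7883, the lowest, and the group above it, and INSR only between sensitive DMSO, the lowest, and the group above it. Neighbouring levels of IGFBP2, IGFBP6 and IGFBP7 did not differ beyond the test's threshold. The other comparison this order drew on, resistant cells in DMSO against sensitive cells in GNE-7883, called 66.3% of all genes.

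Summed over IGFBP1 to IGFBP7, binding protein transcripts came to 728 ± 21.2 RPKM in resistant cells in GNE-7883 and 749.5 ± 26.6 in resistant cells in DMSO, and to 557 ± 7.72 in sensitive cells in GNE-7883 and 1135 ± 103 in sensitive cells in DMSO (SD, n = 3 each). IGFBP3 made up 19.6% ± 0.82 of that sum in resistant cells in GNE-7883 and 25.1% ± 1.67 in resistant cells in DMSO, against 13.1% ± 0.56 in sensitive cells in GNE-7883 and 36.1% ± 2.63 in sensitive cells in DMSO. IGFBP4 was the largest part in all 4 groups, at 39.1% and 39.4% in resistant cells in GNE-7883 and DMSO, and 46.8% and 43.4% in sensitive cells in GNE-7883 and DMSO. IGFBP5 was 7.59% and 9.22% of the sum in resistant cells in GNE-7883 and DMSO, and 0.689% and 2.2% in sensitive cells in GNE-7883 and DMSO. IGFBP6 was 33% and 25.6% in resistant cells in GNE-7883 and DMSO, and 38.5% and 17.9% in sensitive cells in GNE-7883 and DMSO. Shares sum to a fixed total, so 1 share cannot move alone.

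**Figure D4:**
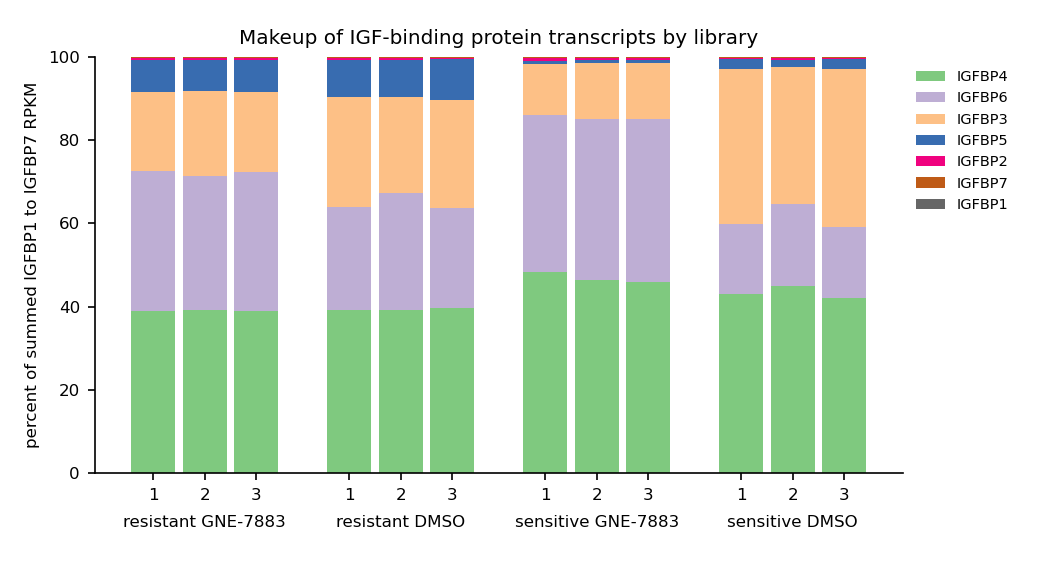
Percent of the summed IGFBP1 to IGFBP7 RPKM held by each binding protein, 1 bar per library with replicate numbers below. The IGFBP3 band is narrowest in sensitive cells in GNE-7883 (12.4% to 13.5%) and widest in sensitive cells in DMSO (33% to 37.8%), and the IGFBP5 band is widest in resistant cells in DMSO.

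The ligands were at or near 0. IGF1 and INS had 0 counts in all 12 libraries, IGFBPL1 had 0 and IGFBP1 had 3 in all. A count of 0 allows a level of up to 0.0639 to 0.0941 CPM, depending on library depth (3 counts, counting error only). IGF2 had 20 to 54 counts per library, with means of 0.144 RPKM in resistant cells in GNE-7883, 0.16 in resistant cells in DMSO, 0.126 in sensitive cells in GNE-7883 and 0.098 in sensitive cells in DMSO. IGF2 was higher in resistant than in sensitive cells in DMSO by 0.65 (edgeR adjusted p = 0.0231), and this was not called without sensitive DMSO replicate 1 (edgeR adjusted p = 0.11), without resistant DMSO replicate 2 (0.123), with DESeq2 (adjusted p = 0.0778) or when only the 2 groups were fitted (0.0565). IGFALS, the third part of the serum complex, held 63 counts in all and did not pass the filter on low counts. Its counts were 1, 1 and 1 in resistant cells in GNE-7883, and 1, 1 and 0 in resistant cells in DMSO. They were 22, 6 and 19 in sensitive cells in GNE-7883, against 3, 6 and 2 in sensitive cells in DMSO. Sensitive cells in GNE-7883 held 47 of the 63 counts, and their lowest library equalled sensitive DMSO replicate 2. Without that DMSO library IGFALS passed the filter, but only through sensitive cells in GNE-7883, the group where it is high. No test of it is therefore given. These levels rest on a few counts per library.

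Outside the members, 15 genes of receptors and adaptors were listed and 13 tested. With GNE-7883, 0 rose and 0 fell in resistant cells (2 rose without sensitive DMSO replicate 2), where 5.25% and 3.97% of all genes did, and 6 rose and 2 fell in sensitive cells, where 29.8% and 28.4% did. IGF2R, the receptor that clears IGF2, had 17.6, 17.1 and 16.9 RPKM in resistant cells in GNE-7883, and 16.1, 16.9 and 18 in resistant cells in DMSO. It had 38.2, 33.1 and 32.8 RPKM in sensitive cells in GNE-7883, against 20.4, 15.3 and 22.7 in sensitive cells in DMSO. The sensitive GNE-7883 group alone lay apart, by 0.83 ± 0.11 from sensitive DMSO (edgeR adjusted p = 7.93e-06), and the drug responses differed by -0.82 ± 0.15 (edgeR adjusted p = 0.000653). In DMSO, IGF2R differed between the lines by -0.27 ± 0.11 (edgeR adjusted p = 0.0529). Without sensitive DMSO replicate 2 this was -0.42 and called (edgeR adjusted p = 1.64e-05). IRS2, a close relative of IRS1, had 3.39, 3.54 and 3.35 RPKM in resistant cells in GNE-7883, and 2.71, 3.06 and 3.07 in resistant cells in DMSO. It had 4.25, 4.11 and 4.3 RPKM in sensitive cells in GNE-7883, against 2.61, 2.74 and 2.93 in sensitive cells in DMSO. IRS2 had a log2 fold change of 0.22 ± 0.07 with GNE-7883 in resistant cells (edgeR adjusted p = 0.0612, and 0.019 without sensitive DMSO replicate 2) and rose by 0.61 ± 0.07 in sensitive cells (edgeR adjusted p = 1.34e-06), where IRS1 fell, and the responses differed by -0.40 ± 0.10 (edgeR adjusted p = 0.00457). Between the lines, 1 of 13 rose and 6 fell in DMSO (1 and 8 without sensitive DMSO replicate 2), where 24.2% and 24.4% of all genes did, and 1 rose and 7 fell in GNE-7883, where 30.7% and 31.1% did. The shares of all genes are the same for the lists below. GRB10, an adaptor that inhibits both receptors, was higher in resistant cells in DMSO (0.99 ± 0.06, edgeR adjusted p = 9.42e-10). SOCS3, an inhibitor of receptor signalling, was lower (-1.95 ± 0.07, edgeR adjusted p = 5.24e-12).

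Of 16 IGFBP proteases and inhibitors 11 were tested: 3 rose and 2 fell with GNE-7883 in resistant cells (3 and 3 without sensitive DMSO replicate 2), and 6 rose and 4 fell in sensitive cells. PAPPA, the protease that cleaves IGFBP4, had 42, 39.8 and 40.3 RPKM in resistant cells in GNE-7883, and 40.9, 40.2 and 45.8 in resistant cells in DMSO. It had 29.7, 27.1 and 27.8 RPKM in sensitive cells in GNE-7883, against 19.7, 12.4 and 21.5 in sensitive cells in DMSO. Every resistant library lay above every sensitive one, by 1.17 ± 0.14 in DMSO (edgeR adjusted p = 3.9e-06), where IGFBP4 was lower, and by 0.45 ± 0.14 in GNE-7883 (edgeR adjusted p = 0.00972). With GNE-7883, PAPPA changed by -0.06 ± 0.14 in resistant cells (edgeR adjusted p = 0.866). It rose in sensitive cells (0.66 ± 0.14, edgeR adjusted p = 0.000708), where IGFBP4 transcripts fell. Cleavage of the protein was not measured. STC2, a secreted inhibitor of PAPP-A, had 1.97, 1.94 and 2.02 RPKM in resistant cells in GNE-7883, and 3.73, 3.82 and 3.7 in resistant cells in DMSO. It had 0.824, 0.829 and 0.7 RPKM in sensitive cells in GNE-7883, against 2.97, 2.86 and 2.87 in sensitive cells in DMSO. No 2 of these groups overlapped. STC2 fell with GNE-7883 in resistant cells (-0.93 ± 0.07, edgeR adjusted p = 9.87e-07) and in sensitive cells (-1.89 ± 0.08, edgeR adjusted p = 2.26e-11). Like PAPPA, it was higher in resistant than in sensitive cells. The difference was 0.30 ± 0.07 in DMSO (edgeR adjusted p = 0.00212) and 1.26 ± 0.08 in GNE-7883 (edgeR adjusted p = 1.64e-09). The RPKM ratio of PAPPA to STC2 was 20.6 ± 0.672 in resistant cells in GNE-7883 and 11.3 ± 0.973 in resistant cells in DMSO, and 36.2 ± 3.53 in sensitive cells in GNE-7883 and 6.14 ± 1.63 in sensitive cells in DMSO (SD, n = 3 each). Between the lines, 8 of 11 rose and 2 fell in DMSO (9 and 2 without sensitive DMSO replicate 2), and 6 rose and 3 fell in GNE-7883.

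**Figure D5:**
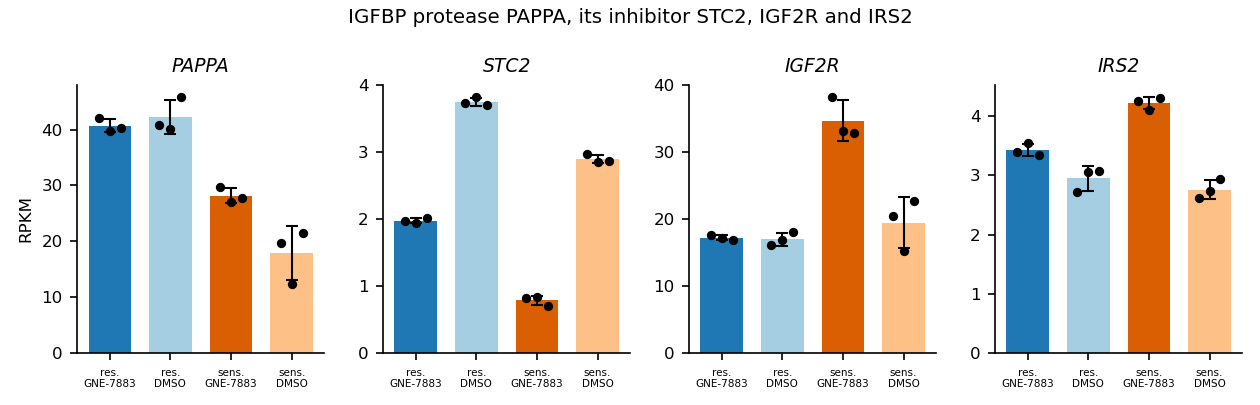
RPKM (linear axis from 0) of PAPPA, STC2, IGF2R and IRS2 in each library; bars are group means, error bars SD (n = 3), points single libraries. STC2 is lower in GNE-7883 than in DMSO in both lines (1.98 against 3.75 in resistant, 0.784 against 2.9 in sensitive cells), and IGF2R stands out in sensitive cells in GNE-7883.

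Of 28 genes of the PI3K-AKT-mTOR arm, all tested, 3 rose and 0 fell with GNE-7883 in resistant cells, and 13 rose and 5 fell in sensitive cells, with medians of 0.05 in resistant and 0.19 in sensitive cells. Without sensitive DMSO replicate 2, 4 rose and 0 fell in resistant cells, 12 rose and 8 fell in sensitive cells, and the median was 0.05 in either line. PIK3IP1 rose by 1.08 ± 0.14 in resistant cells (edgeR adjusted p = 0.000169) and by 2.99 ± 0.14 in sensitive cells (edgeR adjusted p = 8.02e-11). EIF4EBP1, the translation repressor that mTOR inactivates, fell in sensitive cells (-1.04 ± 0.11, edgeR adjusted p = 6.01e-07). INPP4B (-2.46 ± 0.24, edgeR adjusted p = 2.76e-07) and PHLPP1 (-0.92 ± 0.08, edgeR adjusted p = 7.94e-08) of the same list also fell there. INPP4B averaged only 0.205 RPKM in sensitive cells in DMSO. Both were lower in resistant than in sensitive cells in DMSO (-2.83 ± 0.24 for INPP4B and -1.59 ± 0.08 for PHLPP1). Between the lines, 9 rose and 7 fell in DMSO (8 and 9 without that library), and 5 rose and 9 fell in GNE-7883 (5 and 11 without it).

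Of 16 FOXO target genes 14 were tested: 5 rose and 1 fell with GNE-7883 in resistant cells, where 5.25% of all genes rose and 3.97% fell, and 12 rose and 2 fell in sensitive cells, where 29.8% rose and 28.4% fell, with medians of 0.19 in resistant and 1.01 in sensitive cells. Without sensitive DMSO replicate 2 the counts in resistant cells were 9 and 2, in a fit that called 3060 of all genes, against 1663 with it. In resistant cells the rise of KLHL24 (0.39 ± 0.11, edgeR adjusted p = 0.0389) was lost under 9 of 18 alternatives. The only fall there, of ERBB3 (-0.26 ± 0.07, edgeR adjusted p = 0.0265), was lost under 5 of 18. FBXO32, a ubiquitin ligase subunit, rose by 1.19 ± 0.06 in resistant cells (edgeR adjusted p = 1.29e-08) and by 3.42 ± 0.06 in sensitive cells (edgeR adjusted p = 1.53e-14). SOD2, a mitochondrial superoxide dismutase, rose by 0.87 ± 0.05 in resistant cells (edgeR adjusted p = 7.8e-08) and by 2.39 ± 0.06 in sensitive cells (edgeR adjusted p = 4.88e-14). The 2 that fell in sensitive cells were ERBB3 (-2.52 ± 0.07, edgeR adjusted p = 3.8e-13) and CITED2 (-0.59 ± 0.06, edgeR adjusted p = 1.02e-06). Between the lines, 3 rose and 7 fell in DMSO, and 2 rose and 11 fell in GNE-7883. Of 12 other secreted proteins with an IGFBP-type module, 7 were tested and 2 rose and 3 fell in each line with GNE-7883. ESM1, a secreted proteoglycan, went opposite ways: it averaged 0.949 ± 0.128 RPKM in resistant cells in GNE-7883 and 2.5 ± 0.292 in resistant cells in DMSO, and 0.931 ± 0.0544 in sensitive cells in GNE-7883 and 0.188 ± 0.0152 in sensitive cells in DMSO (SD, n = 3 each). It fell in resistant cells (-1.39 ± 0.13, edgeR adjusted p = 5.07e-06) and rose in sensitive cells (2.31 ± 0.19, edgeR adjusted p = 4.87e-08), and the responses differed by -3.70 ± 0.23 (edgeR adjusted p = 1.13e-08). CCN1 fell in both (-0.34 ± 0.04 in resistant cells, edgeR adjusted p = 0.000136, and -1.31 ± 0.05 in sensitive cells, edgeR adjusted p = 2.4e-12).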

How the data were processed

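The authors deposited a table of raw read counts per Ensembl gene and, for the same 58302 genes and 12 libraries, a table of RPKM values. The submitters' processing notes name GSNAP, genome build GRCh38.p10 and limma, without their roles; which counting tool and annotation were used is not given in the sources used here. Per the labels' protocols, libraries were made from 500 ng RNA with a kit that does not mark strand and read as single-end 50-base reads. Over 12122 genes with at least 50 counts, the deposited RPKM equalled counts divided by library totals and a length per gene within a relative deviation of 9.5e-09. Total counts were 31878934 to 46962645.

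Counts were scaled by TMM, filtered with filterByExpr and tested in edgeR 4.0.16 (R 4.3.3) by its quasi-likelihood test, fitting 12 libraries with a mean for each group (8 residual degrees of freedom), two-sided, with Benjamini-Hochberg adjustment over 18035 genes in each comparison. A standard error is the log2 fold change divided by the square root of F. On simulated counts with a single spread for all genes, the fit was checked only for recovery of large planted changes. False calls and small changes were not checked there. Alternatives were DESeq2 1.42.0, its size factors, other filters, a replicate block, only the groups compared, and each library left out. The members and gene lists were chosen with earlier results of these data known. Named genes are the 9 members, up to 3 called genes per list and direction with at least 1 CPM, the 3 genes nearest each member in group means of log2(CPM + 0.5) with at least 5 CPM, and PAPPA, STC2, IRS2 and IGF2 for their roles; genes beside IGF1R and IGFBP5 were named after their values were seen. Positions are from GENCODE 29 on GRCh38 and promoters from RefSeq on GRCh38.p14.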

Additional observations from a re-analysis of the deposited data

Results flagged for a closer look

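Each value below is the difference of the GNE-7883 responses on the log2 scale, resistant minus sensitive cells, and is given because that difference itself passed edgeR's interaction test (adjusted p under 0.05). A positive value means that the response was less negative, or more positive, in resistant cells. Among the members the difference was 2.36 for IGFBP5, 2.08 for IGFBP3, 0.86 for IGFBP4, 0.77 for IRS1, 0.49 for IGFBP2 and -0.32 for INSR. The last of these, and IGFBP2, were not past the threshold under 7 of 17 and 2 of 17 alternatives.

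Among receptors and proteases it was -0.82 for IGF2R, -0.40 for IRS2, -0.72 for PAPPA, 0.96 for STC2, -0.55 for SOCS3, 0.57 for PLAT and -1.53 for MMP2. In the PI3K arm it was -1.91 for PIK3IP1, -1.14 for FOXO4, 0.86 for EIF4EBP1, 0.76 for PHLPP1 and 2.63 for INPP4B. INPP4B averaged at most 0.205 RPKM in a group. Of the 28 genes of that arm, 4 had a positive and 7 a negative difference past the threshold. Among FOXO target genes it was -2.22 for FBXO32, -1.53 for SOD2, 2.26 for ERBB3 and 0.39 for CITED2. It was -3.70 for ESM1, which fell in resistant and rose in sensitive cells, 0.97 for CCN1, 2.36 for CCN2 and -1.61 for SFTPD. Among genes beside IGF1R and IGFBP5 it was -0.91 for ARRDC4, -0.75 for ADAMTS17, 0.34 for SMARCAL1, 3.97 for DIRC3-AS1 and 2.61 for MARCHF4, whose value restates its choice as the gene most like IGFBP5. The value of DIRC3-AS1 has an SE of 1.13 and rests on few counts, at most 0.261 CPM in a group. Of all 18035 genes, 19% had a positive and 16.7% a negative difference past the threshold.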

How the results depend on the processing

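Of the members' log2 fold changes recomputed under the alternatives, 748 kept their direction and side of the threshold, 31 lost the call, 14 gained it and 3 changed sign. Those 3 were small: in GNE-7883 against DMSO in resistant cells IRS1 ran from -0.11 to 0.02 with 1 library left out, above 0 where replicate 2 of either resistant group was missing, and between the lines in GNE-7883 IGFBP7 ran from -0.21 to 0.04, above 0 where resistant GNE-7883 replicate 2 was missing. The number of genes called with GNE-7883 in resistant cells was 1663, and 854 to 3060 with 1 library left out (854 without resistant GNE-7883 replicate 3, 861 and 950 without resistant DMSO replicates 1 and 3, 984 without resistant GNE-7883 replicate 1, 3060 without sensitive DMSO replicate 2); members called there were 2, and 1 to 3 with 1 library left out. In DMSO 7 members were called between the lines and 4 when only the 2 groups were fitted. Of all genes, 8775 were called in that comparison, and 6739 to 8911 under the alternatives other than leaving 1 library out. Part of the drop in members may therefore be a loss of calls over all genes, which was not tested. Computed from CPM in place of RPKM, the IGFBP3 share was 22.9% in resistant cells in GNE-7883, 27.4% in resistant cells in DMSO, 18.3% in sensitive cells in GNE-7883 and 42% in sensitive cells in DMSO, since CPM leaves gene length in. The cause of the other changes was not tested. Of 149 called values of other named genes, recomputed 2634 times, 49 lost the call and 0 changed sign.

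The replicate numbers did not pair the samples across all groups. Of 18 same-numbered pairs, correlations of deviations ran from -0.601 to 0.561, and 5 were above 0.1. In all, 0 libraries matched best with their own number in every other group at once. Sensitive and resistant DMSO libraries correlated at 0.0381, 0.519 and 0.561 for replicates 1, 2 and 3. Whether these DMSO libraries were paired was not tested. With the replicate number as a block, 1372 genes were called for GNE-7883 in resistant cells, 10305 in sensitive cells, 8594 between the lines in DMSO, 11050 in GNE-7883 and 6211 for the difference of responses, and members called between the lines in DMSO were 5, against 7.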
